A study of Mus musculus with 3 samples.

Results

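The cathepsins are proteases of the lysosome and the cystatins are the small proteins that bind and block many of them, and the RNA of 10 of these genes was followed through single cells of mouse brains with and without mammary tumour metastases. The genes were taken by name, from 19208 genes of the metastasis-bearing table and 17453 genes of the naive table, and all 10 were present in both tables. They are Ctsa, Ctsb, Ctsc, Ctsd, Ctsh, Ctsl, Ctss and Ctsz among the cathepsins, and Cst3 and Cst7 among the cystatins. The choice used no measured value of a gene, although earlier results of these data were known when it was made.

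The study asked how loss of Cx3cr1, the receptor of microglia and monocytes for the chemokine fractalkine, changes the immune cells of the brain around metastases. Female C57Bl/6 mice, 2 to 3 months old, were Cx3cr1-/- (both alleles lost, here homozygous) or Cx3cr1+/- (1 allele lost, here heterozygous), so a fully intact Cx3cr1 was not part of the design. E0771 cells, a mouse mammary carcinoma line, were injected into the carotid artery of 4 of these mice about 2 weeks before collection, and 4 naive mice gave the other brains. There were 2 homozygous and 2 heterozygous brains in each state, of which 1 hemisphere each was used; the 8 brains were marked with hashtag antibodies, pooled in 1 preparation, enriched on a density gradient and read for RNA and for 35 surface antibodies. The 8 brains are therefore biological replicates within 1 preparation, and no second preparation measures its part in a value.

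The metastasis-bearing brains gave 8443 cells and the naive brains 2736, after 1138 barcodes that stood in both tables were left out. Among metastasis-bearing brains the homozygous ones gave 2925 and 1554 cells and the heterozygous ones 1354 and 2610. Of these, 1629 and 655 in homozygous and 231 and 217 in heterozygous brains were Krt8-high cells, which carry epithelial keratin RNA. The number of Krt8-high cells thus differed with genotype, and its part in the genotype comparisons was not tested. Cells were grouped by the clusters the authors deposited, and a cluster was named where its marker genes allowed it. The clusters left without a cell type were a low-UMI cluster of 640 cells and a cluster of 7 cells in metastasis-bearing brains, and in naive brains a low-UMI cluster of 554 cells, a mixed monocyte and neutrophil cluster of 171 cells and a mixed border macrophage and dendritic cluster of 135 cells. They stand outside the rankings by class. Microglia-like cells, the resident macrophages of the brain, numbered 85 and 35 in the homozygous and 390 and 144 in the heterozygous metastasis-bearing brains, so the homozygous values rest on few cells. Their summed RNA of 7 microglia markers ran from 10183 to 11851 counts per 1000000 (CPM) with 0 of the 7 at 0. Cx3cr1 itself stood at 113.5 and 31.6 CPM in the homozygous and at 1363 and 1464 CPM in the heterozygous microglia-like cells of metastasis-bearing brains. In naive brains it stood at 75.6 and 71.4 CPM in the homozygous and at 1953 and 1852 CPM in the heterozygous ones. The RNA of the lost gene thus followed the genotype labels in all 8 brains.

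As background, cathepsins are made as inactive precursors, are sorted to the lysosome and are switched on there by acid and by other proteases. Most of the 10 are cysteine proteases; Ctsd is an aspartic protease and Ctsa a serine carboxypeptidase that also shields other lysosomal enzymes. In microglia and macrophages they digest engulfed material and trim antigens, and cells can also release them, which is one way tissue around tumours is remodelled. Cst3 (cystatin C) is secreted and blocks cysteine cathepsins outside cells, while Cst7 (cystatin F) is sent to the lysosome, where it restrains among others Ctsc, the enzyme that activates the granule proteases of killer lymphocytes. In mouse models of brain disease, Cst7 is a known gene of activated microglia.

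Transcription factors of the TFEB family switch on many lysosomal genes through E-boxes, and PU.1 acts through its own motif in myeloid cells, so the DNA before annotated starts of the genes is given here. RefSeq (GRCm38.p6) gave windows of 250 bases before an annotated start for 8 of the 10 genes, 9 windows in all. The 3 windows with the E-box CACGTG and the 1 window with the PU.1 motif GAGGAAGT are printed below, followed by that of Cst3, the gene with the largest share of RNA in microglia-like cells. Each runs 5′ to 3′ along the gene's own strand, and capitals mark the E-box, or in Ctsc the PU.1 motif, which there reads on the opposite strand. The windows of Ctsl and of the second Ctsa start lie inside the annotated genes (chr13:64361890-64370772 and chr2:164832872-164841032), before an internal start, and the last bases of the Ctsc window also lie inside its gene, which begins at position 88278024.
Ctsd (chr7:142387828-142388077, minus strand): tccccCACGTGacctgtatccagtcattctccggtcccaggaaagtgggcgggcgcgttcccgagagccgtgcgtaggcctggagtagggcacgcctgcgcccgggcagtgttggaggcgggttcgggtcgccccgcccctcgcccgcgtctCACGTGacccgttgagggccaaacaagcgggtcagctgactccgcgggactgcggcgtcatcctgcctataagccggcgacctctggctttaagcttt
Ctsa, its second start (chr2:164833523-164833772, plus strand): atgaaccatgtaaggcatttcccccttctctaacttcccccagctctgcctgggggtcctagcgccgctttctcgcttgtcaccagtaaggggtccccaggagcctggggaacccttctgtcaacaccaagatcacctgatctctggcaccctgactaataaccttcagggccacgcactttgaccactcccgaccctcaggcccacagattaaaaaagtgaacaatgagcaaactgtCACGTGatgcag
Ctsl, an internal start (chr13:64370521-64370770, minus strand): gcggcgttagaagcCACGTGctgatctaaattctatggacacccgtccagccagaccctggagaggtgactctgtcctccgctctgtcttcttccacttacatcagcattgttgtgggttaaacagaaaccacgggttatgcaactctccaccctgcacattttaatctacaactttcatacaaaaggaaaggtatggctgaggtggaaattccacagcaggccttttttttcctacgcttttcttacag
Ctsc (chr7:88277835-88278084, plus strand): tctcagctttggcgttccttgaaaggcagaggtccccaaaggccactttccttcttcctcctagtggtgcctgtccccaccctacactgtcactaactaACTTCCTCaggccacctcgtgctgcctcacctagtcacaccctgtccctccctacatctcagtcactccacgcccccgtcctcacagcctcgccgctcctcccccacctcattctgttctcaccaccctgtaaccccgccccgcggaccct
Cst3 (chr2:148875513-148875762, minus strand): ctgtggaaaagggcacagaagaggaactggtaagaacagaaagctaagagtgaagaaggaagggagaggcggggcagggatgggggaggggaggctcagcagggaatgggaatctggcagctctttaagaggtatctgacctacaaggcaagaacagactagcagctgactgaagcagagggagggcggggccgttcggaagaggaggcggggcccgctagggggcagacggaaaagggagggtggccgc

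The E-box began 245 and 98 bases before the start in Ctsd, 236 before the internal start in Ctsl and 12 before the second start in Ctsa, and the PU.1 motif 151 bases before it in Ctsc. Each motif was searched on both strands in the 32851 windows of this kind. The E-box stood in 3 of the 9 windows, against 6.02% of all windows, and the PU.1 motif in 1 of 9, against 2.44%. Extended by 1 base on each side (TCACGTGA, which contains the E-box), it stood in the windows of Ctsa and Ctsd, against 0.785% of all windows, and the longer CLEAR palindrome of lysosomal genes stood in 0 of the 9, against 0.240%. In all, 10 motifs were searched, and the marked ones were picked after the matches were seen. The other 6 gave 5 of 9 windows for GGGCGG (32.7% of all), 1 for CCAAT (Ctsz, 33.8%), 1 for TATAAA (Ctss, 12.4%), 1 for GGAAGTG (Cst7, 8.55%), 1 for the interferon-stimulated response element (Ctss, 2.98%) and 0 for TGANTCA (6.75%). A match is only these letters in this window, and binding was not measured.

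Among the named classes of metastasis-bearing brains, microglia-like cells held the highest level of 6 of the 10 genes, monocyte/macrophage-like cells that of 3 and NK-like cells that of 1. Levels are CPM of depth-corrected molecules summed over all cells of a class. They are compared between classes within 1 gene, and they are described without a test because the clusters were built from the same RNA. Monocyte/macrophage-like cells are the infiltrating myeloid cells, which carried monocyte markers such as Ly6c2 and Ccr2. The plot of levels by class shows every gene.

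**Figure D1:**
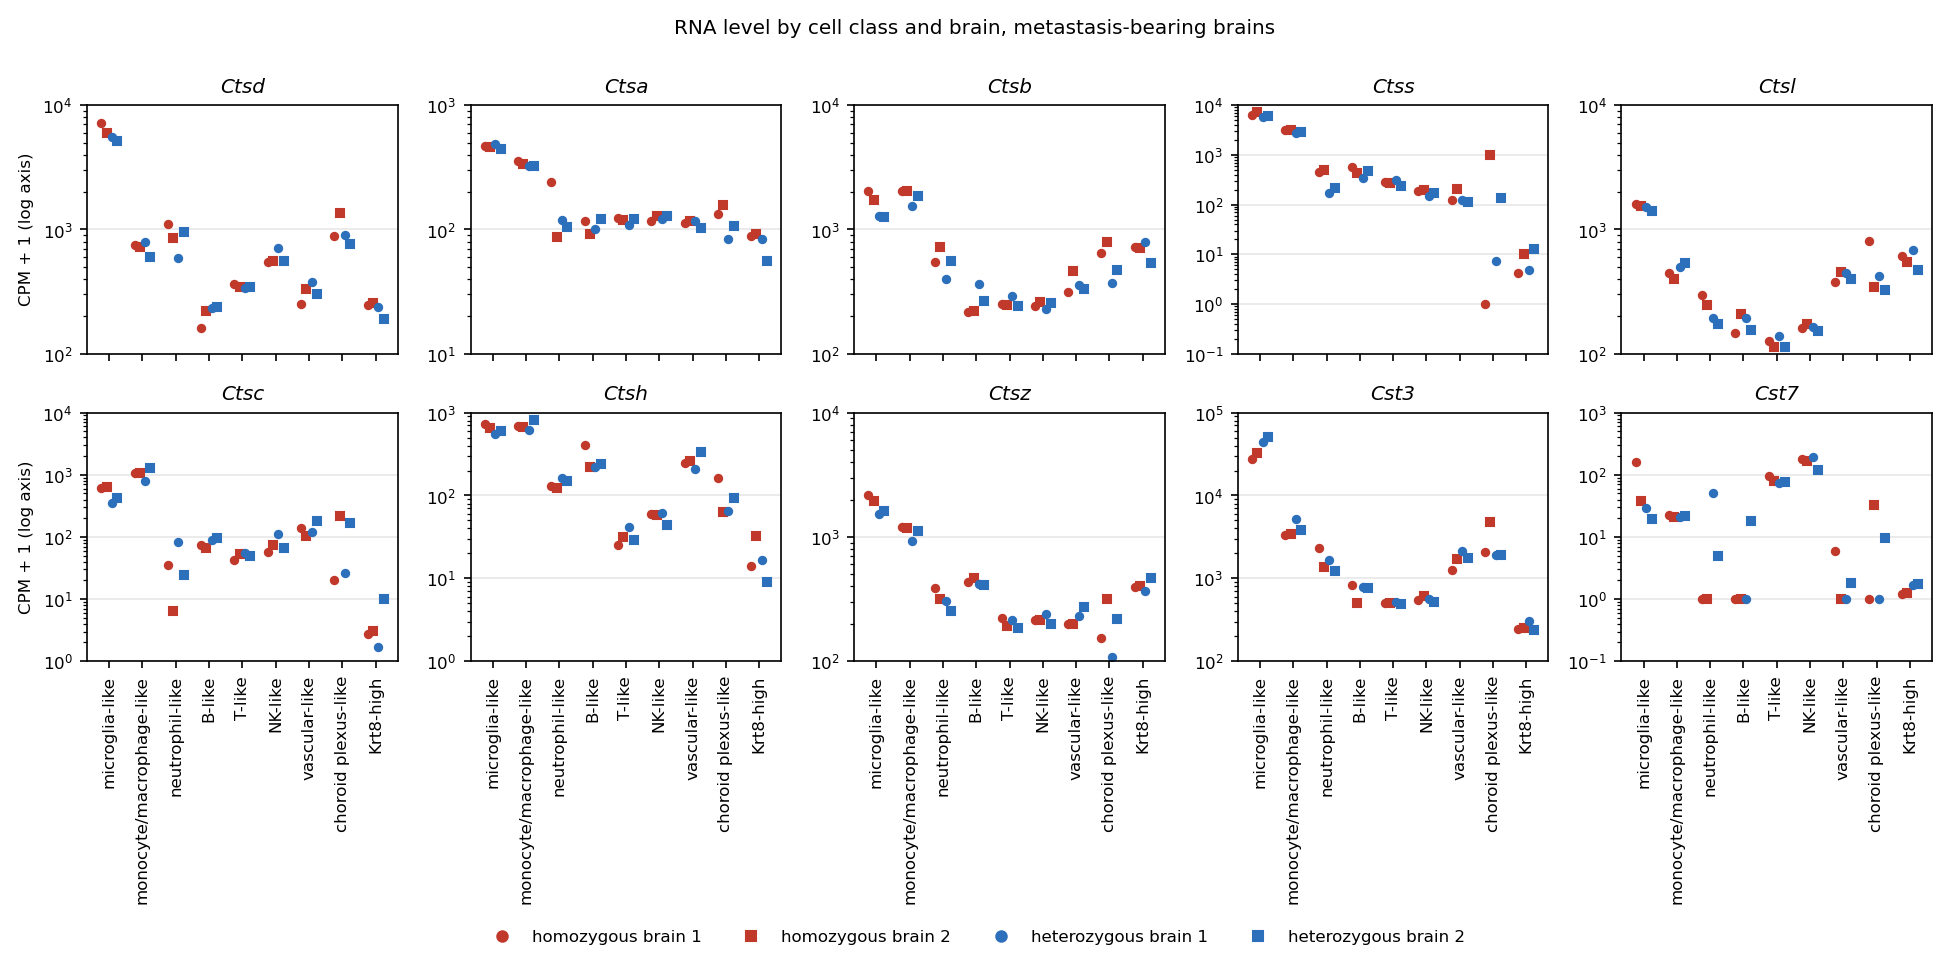
Level of each gene (CPM + 1, log axis) in the named classes of metastasis-bearing brains; each point is 1 brain, homozygous brains in red left of heterozygous brains in blue. Microglia-like cells lead for Cst3, Ctsd, Ctss, Ctsz, Ctsl and Ctsa at class totals of 43019, 5697, 5984, 1662, 1497 and 471 CPM, and NK-like cells lead for Cst7 at 144 CPM.

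Cst3 set microglia-like cells apart most clearly. It reached 43019 CPM there, against 3780 in monocyte/macrophage-like, 2107 in choroid plexus-like, 1813 in vascular-like and 252 in Krt8-high cells, the cells with epithelial keratin RNA. No brain of the other named classes came near the lowest microglia-like value of 27797 CPM, and choroid plexus-like cells overlapped both monocyte/macrophage-like and vascular-like cells, which did not overlap each other. Cst3 was the gene with the most RNA molecules in microglia-like cells of all 8 brains.

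The aspartic protease Ctsd reached 5697 CPM in microglia-like cells, and choroid plexus-like (861), neutrophil-like (843) and monocyte/macrophage-like cells (687) followed with overlapping brains. Ctss, which cuts the class II invariant chain, stood at 5984 CPM in microglia-like, 2999 in monocyte/macrophage-like and 453 in B-like cells. Ctsz, a carboxypeptidase, stood at 1662, 1128 and 418 CPM in the same 3 classes. For Ctss and Ctsz the brains of microglia-like cells did not overlap those of monocyte/macrophage-like cells. The same held for Ctsa, at 471 CPM in microglia-like against 335 in monocyte/macrophage-like cells. Ctsl, an endopeptidase, stood at 1497 CPM in microglia-like cells, ahead of Krt8-high cells (590) and monocyte/macrophage-like cells (479), which overlapped each other.

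Monocyte/macrophage-like cells led for Ctsc, at 1137 CPM against 414 in microglia-like and 135 in vascular-like cells, with no overlap between brains. They also stood first for Ctsb, a protease active in the lysosome and outside cells, at 1916 CPM against 1409, and for Ctsh, an aminopeptidase, at 727 CPM against 594. For Ctsb and Ctsh the brains of these classes overlapped, so their order is not settled.

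Cst7 followed lymphocytes. It stood at 144 CPM in NK-like cells, 78.4 in T-like, 44.5 in microglia-like and 20.8 in monocyte/macrophage-like cells. The brains of NK-like cells lay above those of T-like cells, while microglia-like cells spanned 18.8 to 158 CPM and overlapped the other 3 classes.

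Among the 7 named classes of naive brains microglia-like cells stood first for all but Cst7, which was highest in the joint T/NK-like cluster at 120 CPM. The 7 classes include 136 Krt8-high cells, although naive mice were not injected with tumour cells. There were 11 and 60 of them in homozygous and 44 and 21 in heterozygous brains. Their origin and their part in the naive values were not tested. For Ctsc the microglia-like brains (288 to 414 CPM) overlapped the B-like ones (118 to 361 CPM). The mixed naive clusters, which hold the other myeloid cells, stood higher for 3 genes: the monocyte and neutrophil cluster had 1129 CPM of Ctsc and 1941 of Ctsb, against 347 and 1189 in microglia-like cells, and the border macrophage and dendritic cluster had 732 CPM of Ctsh, against 594. The brains did not overlap for Ctsc, and for Ctsh they did; for Ctsb the lowest mixed value of 1248 CPM lay just under the highest microglia-like value of 1262 CPM. Naive microglia-like cells held 58470 CPM of Cst3. The 2 tables were corrected for depth separately, so this value and the 43019 CPM of metastasis-bearing brains stand side by side without a test. Cst3 also reached 11679 and 11757 CPM in homozygous and 9225 and 757 CPM in heterozygous naive B-like cells, of which there were 3 and 76 in the homozygous and 8 and 9 in the heterozygous brains. These cells carried microglia marker sums of 2796 and 3922 CPM in the homozygous and 2302 and 740 CPM in the heterozygous brains. The part of microglial RNA in those B-like values was not tested.

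Free RNA can give a class molecules it did not make. Cst3 per CPM of summed microglia markers was 1.32 times the microglia-like ratio in T-like cells, 1.20 times in NK-like and 1.05 times in B-like cells of metastasis-bearing brains. It was 11.4 times that ratio in Krt8-high, 5.89 times in choroid plexus-like and 2.47 times in vascular-like cells. The part of free RNA in the Cst3 of these classes was not tested.

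When both Cx3cr1 alleles were lost, the microglia-like cells around metastases held less Cst3 and more Ctsb, Ctsc and Cst7 in both brains, but none of the 10 genes passed the test across all genes. The test was limma on log2(CPM + 10) with Benjamini-Hochberg adjustment, with 2 homozygous against 2 heterozygous brains. Of 7374 genes, 6 passed an adjusted p of 0.05 (0.0814%). Of the 10 cathepsin and cystatin genes 0 passed and 5 had an unadjusted p under 0.05, as did 635 of all 7374 genes. Their homozygous and heterozygous brains did not overlap for 9, with 8 higher and 1 lower in homozygous brains, but 40.6% of all genes were without overlap, against which the 9 are to be read. The median log2 change of the 10 was 0.28, against 0.01 over all genes. Monocyte/macrophage-like cells held less Cst3 and more Ctsc than microglia-like cells, with no overlap between brains. They held more Ctsb and less Cst7 in class totals, with overlapping brains. Whether their RNA entered these genotype values was not tested. The plot of brains shows all values.

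**Figure D2:**
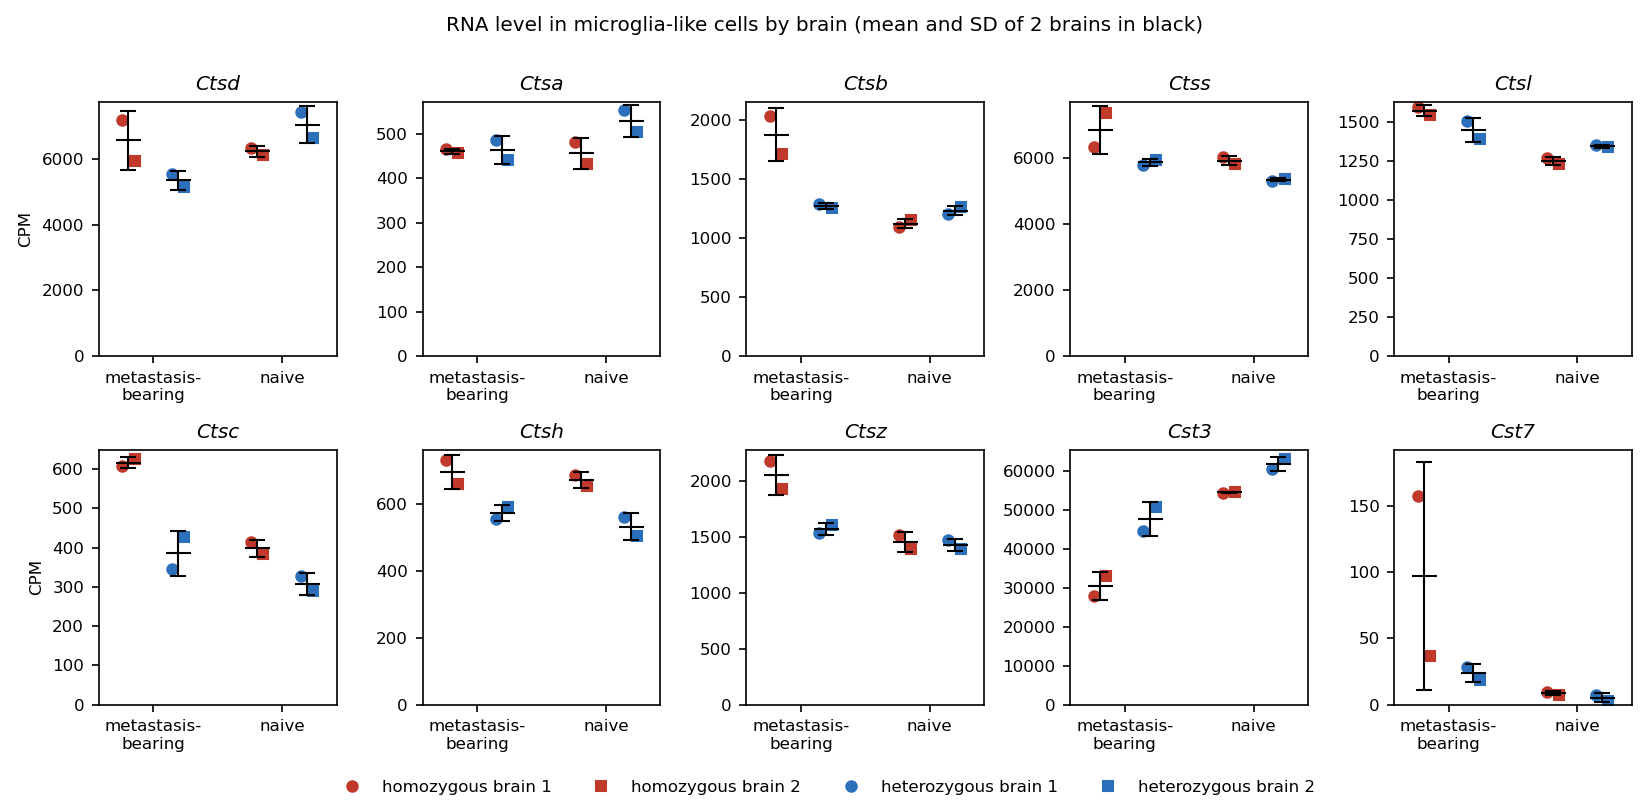
Level (CPM) of each of the 10 genes in microglia-like cells, 1 point per brain, homozygous brains left of heterozygous brains, for metastasis-bearing and naive brains. Cst3 lies lower and Ctsb and Ctsc higher in homozygous metastasis-bearing brains, with no overlap.

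Cst3 stood at 27797 and 33000 CPM in the homozygous brains and at 44610 and 50717 CPM in the heterozygous ones. Both homozygous brains lay under both heterozygous brains. The means were 30398 ± 3679 and 47664 ± 4318 CPM (SD, n = 2 each), and the log2 change was -0.65 (SE 0.13, limma adjusted p = 0.203). Without the first or the second heterozygous brain the log2 changes were -0.74 and -0.56. Such a fit leaves 1 brain in a genotype, whose variation is taken from the pair of the other, so its p-values are not given. Averaged ln values gave -0.80 (limma adjusted p = 0.0075). That p-value rests largely on a variance borrowed from other genes, so it is not read as a call. With cells of 5000 to 15000 raw molecules the log2 change was -0.42 (limma adjusted p = 0.866). Cst3 alone made up 2.78 and 3.30% of all corrected molecules in homozygous and 4.46 and 5.07% in heterozygous microglia-like cells. The 10 genes together made up 4.91 and 5.33% in the homozygous and 6.17 and 6.75% in the heterozygous brains.

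Ctsb stood at 2037 and 1719 CPM in homozygous brains and at 1290 and 1257 CPM in heterozygous brains, a log2 change of 0.55 (SE 0.13, limma adjusted p = 0.311). Ctsc stood at 607 and 626 CPM in homozygous brains and at 345 and 426 CPM in heterozygous brains, a log2 change of 0.67 (SE 0.14, limma adjusted p = 0.239). For Ctsc the log2 change was 0.82 without the second heterozygous brain and 0.52 without the first. With cells of 5000 to 15000 raw molecules Ctsc was 0.39, and with all deposited cells Ctsc was 0.44 and Ctsb 0.35. For both genes the homozygous brains lay above the heterozygous ones. Ctsz stood at 2183 and 1930 CPM in homozygous and 1535 and 1611 CPM in heterozygous brains (log2 change 0.38, limma adjusted p = 0.459). Ctsd, at 7175 and 5928 CPM in homozygous and 5540 and 5133 CPM in heterozygous brains, had a log2 change of 0.29 (limma adjusted p = 0.588).

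Ctss, Ctsh and Ctsl had log2 changes of 0.22, 0.27 and 0.12 and also lay higher in both homozygous brains, and Ctsa, at -0.01, overlapped. Their limma adjusted p-values were 0.603 and above. When the cells were taken by the authors' antibody gate for microglia in place of the clusters, Ctsd, Ctsh, Ctsl and Ctss turned to log2 changes of -0.31, -0.06, -0.43 and -0.37, so their direction depends on how the cells are picked. With that gate the log2 change was 0.16 for Ctsc (limma adjusted p = 0.873), 0.36 for Ctsb, 0.02 for Ctsz and 0.86 for Cst7, smaller than with the clusters for each of the 4, and -1.27 for Cst3 (limma adjusted p = 0.492).

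Cst7 stood at 158 and 36.4 CPM in homozygous microglia-like cells and at 28.4 and 18.8 CPM in heterozygous ones, a log2 change of 1.41 (SE 0.51, limma adjusted p = 0.526). The size of this difference rested on the first homozygous brain: without it the log2 change was 0.48, and without the second homozygous brain it was 2.33. Averaged ln values gave 0.47. Without the first heterozygous brain the log2 change was 1.62, and without the second it was 1.20. A Cst7 molecule was found in 37 of 85 cells (43.5%) and 9 of 35 cells (25.7%) of the homozygous brains, and in 36 of 390 (9.23%) and 14 of 144 (9.72%) of the heterozygous brains. Thinned to 3000 corrected molecules per cell, the expected shares were 23.3 and 9.29% in homozygous and 4.21 and 3.49% in heterozygous brains. The first homozygous brain also had the deepest microglia-like cells, with a median of 12596 raw molecules, against 8335 in the second homozygous and 7850.5 and 8928.5 in the heterozygous brains.

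Cst7 is also a lymphocyte gene, and molecules of lymphocytes were present in these cells. The summed NK markers were 49.7 and 21.8 CPM in homozygous and 1.98 and 32.9 CPM in heterozygous microglia-like cells, and the summed T cell markers 127 and 136 CPM in homozygous and 18.7 and 215 CPM in heterozygous ones. Cst7 per CPM of NK markers was 3.17 and 1.67 in homozygous and 14.3 and 0.571 in heterozygous microglia-like cells, against 0.0806 and 0.0764 in homozygous and 0.0946 and 0.0545 in heterozygous NK-like cells. Cst7 per CPM of T cell markers was 1.24 and 0.268 in homozygous and 1.52 and 0.0874 in heterozygous microglia-like cells, against 0.0213 and 0.0185 in homozygous and 0.0201 and 0.0180 in heterozygous T-like cells. The marker sums under these ratios were far smaller in microglia-like cells than in NK-like or T-like cells, which by itself raises a ratio. The order of the ratios between classes is therefore not read. The granzymes Gzma and Gzmb, proteases of killer granules, were also found in microglia-like cells. Gzma stood at 192 and 104 CPM in homozygous and 4.62 and 77.5 CPM in heterozygous brains (log2 change 2.09, limma adjusted p = 0.489). Gzmb stood at 66.6 and 60.7 CPM in homozygous and 1.98 and 31.7 CPM in heterozygous brains (log2 change 1.72, limma adjusted p = 0.415). Of the cells with a Cst7 molecule, 4 of 37 and 1 of 9 in homozygous and 1 of 36 and 3 of 14 in heterozygous brains also had one of an NK marker. In vascular-like cells, which should lack Cst7, 0.441% of cells had a molecule of it, and in Krt8-high cells 0.293%. The part of lymphocyte RNA in the Cst7 result was not tested.

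In naive microglia-like cells, with 147 and 365 cells in homozygous and 495 and 227 cells in heterozygous brains, Ctsc and Ctsh rose with homozygous loss. Of 7693 genes tested, 44 passed (0.572%), 31 of them upward (0.403%). Of the 10 genes 9 were tested, as Cst7 averaged under 10 CPM, and 2 rose and 0 fell. The homozygous and heterozygous brains did not overlap for 8 of the 9, with 3 higher and 5 lower in homozygous brains, against 37.2% of all genes.

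Ctsc stood at 414 and 383 CPM in homozygous and 327 and 288 CPM in heterozygous naive brains, a log2 change of 0.36 (SE 0.09, limma adjusted p = 0.0425). Ctsh stood at 689 and 655 CPM in homozygous and 561 and 505 CPM in heterozygous naive brains, a log2 change of 0.33 (SE 0.08, limma adjusted p = 0.0455). Both genes lay higher in both homozygous brains. Both calls sit close to the threshold: Ctsc kept its call in 3 of 12 alternative settings, with limma adjusted p-values up to 0.572, and Ctsh in 2 of 12, with values up to 0.598, while both log2 changes stayed above 0.

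Cst3 stood at 54289 and 54613 CPM in homozygous and 60559 and 62944 CPM in heterozygous naive brains, a log2 change of -0.18 (limma adjusted p = 0.598). It lay lower in both homozygous brains, as in the metastasis-bearing ones, but by a smaller amount. Without the first heterozygous brain the log2 change of Cst3 was -0.21. Averaged ln values gave -0.20 (limma adjusted p = 4.6e-15). With 2 brains per genotype that p-value rests on a variance borrowed from other genes, so it is not read as a call. Ctsb stood at 1096 and 1153 CPM in homozygous and 1209 and 1262 CPM in heterozygous naive brains, a log2 change of -0.13 (limma adjusted p = 0.649). Its homozygous brains lay below the heterozygous ones here and above them in metastasis-bearing brains. Ctsa, Ctsd and Ctsl had log2 changes of -0.21, -0.17 and -0.10, Ctss and Ctsz had 0.15 and 0.02, and 0 of these 5 passed. Without the second heterozygous brain the log2 change of Ctsd was -0.25.

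Whether the genotype effect differed between metastasis-bearing and naive brains was tested directly in 1 fit over all 8 brains. Of 7065 genes 1 passed (0.0142%), and of the 9 tested cathepsin and cystatin genes 0 passed by limma, with 4 at an unadjusted p under 0.05, as were 596 of all genes. The estimated difference, metastasis-bearing minus naive, was 0.69 for Ctsb (SE 0.14, limma adjusted p = 0.295), 0.46 for Ctsd (0.512) and -0.47 for Cst3 (0.535). For Ctsb the difference was 0.56 without the first and 0.81 without the second homozygous metastasis-bearing brain. For Ctsd it was 0.60 without the second. The plot of genotype effects sets the log2 changes of microglia-like cells of both states and of monocyte/macrophage-like cells side by side.

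**Figure D3:**
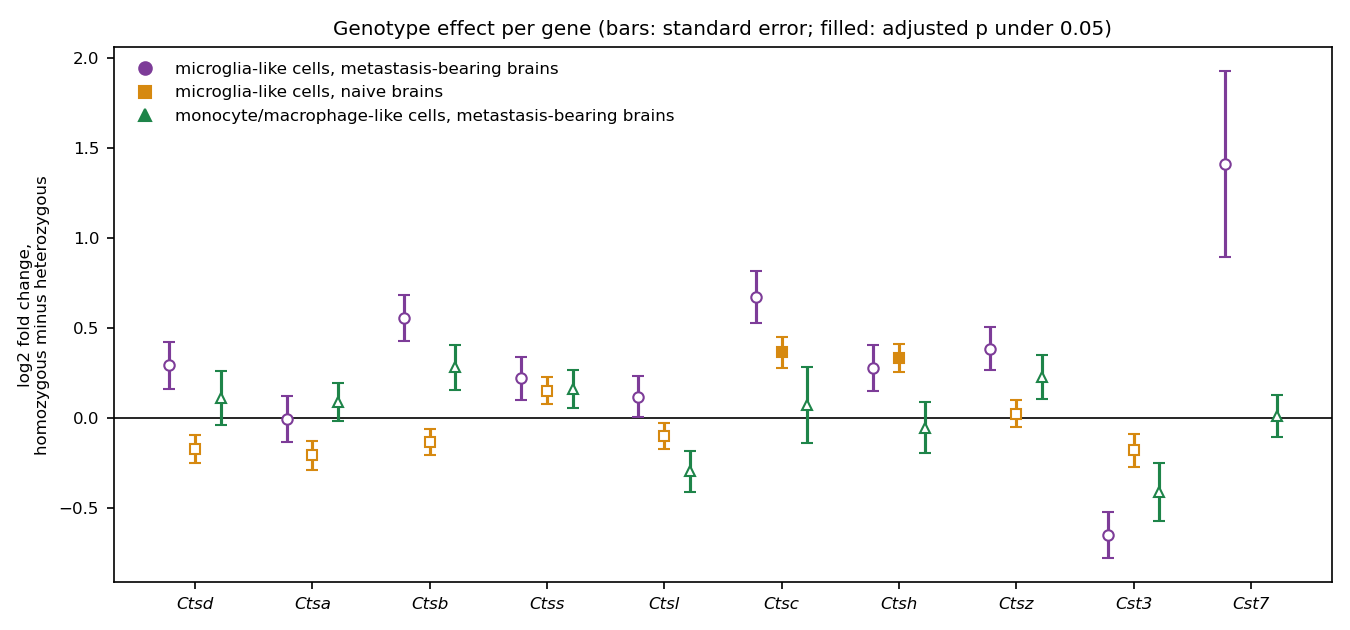
Log2 change of each tested gene, homozygous minus heterozygous, with its standard error. Shown are microglia-like cells of metastasis-bearing and of naive brains and monocyte/macrophage-like cells of metastasis-bearing brains. Filled markers have a limma adjusted p under 0.05. The filled markers are Ctsc and Ctsh in naive microglia-like cells.

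In monocyte/macrophage-like cells of metastasis-bearing brains (452 and 379 cells in homozygous, 203 and 752 in heterozygous brains) 0 of the 10 genes passed, with 2 at an unadjusted p under 0.05. Of all 6980 genes 1 passed (0.0143%), and 535 had an unadjusted p under 0.05. Homozygous and heterozygous brains did not overlap for 6 of the 10, with 4 higher and 2 lower, against 36.7% of all genes. Ctsb stood at 2053 and 2054 CPM in homozygous and 1532 and 1867 CPM in heterozygous brains (log2 change 0.28, limma adjusted p = 0.692). Cst3 stood at 3313 and 3442 CPM in homozygous and 5262 and 3838 CPM in heterozygous brains (log2 change -0.41, limma adjusted p = 0.590). Without the second heterozygous brain Ctsb was 0.42 and Cst3 -0.64, and without the first Ctsb was 0.14 and Cst3 -0.18. Cst3 was -0.19 with cells of 5000 to 15000 raw molecules and -0.16 with averaged ln values. These directions were those seen in microglia-like cells. Ctsl, at 443 and 395 CPM in homozygous and 497 and 538 CPM in heterozygous brains, had a log2 change of -0.30 (limma adjusted p = 0.583).

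Summed microglia markers in the monocyte/macrophage-like cells were 666 and 564 CPM in homozygous and 1079 and 607 CPM in heterozygous brains, so they were highest in the brain with the most Cst3, and their part in that difference was not tested. Set against each other within each brain, the genotype effects of microglia-like and monocyte/macrophage-like cells differed for 2 of 6270 genes (0.0319%) and for 0 of the 10 by limma, with 3 of the 10 and 430 of all genes at an unadjusted p under 0.05. Ctsc had a difference of 0.60 (limma adjusted p = 0.548) and Cst7 of 1.399 (limma adjusted p = 0.653), microglia-like minus monocyte/macrophage-like. For Cst7 the difference was 2.30 without the second homozygous brain and 0.49 without the first. Cst3 had -0.24 (limma adjusted p = 0.797). Its difference was -0.56 without the first heterozygous brain and turned to 0.08 without the second.

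In the remaining classes of metastasis-bearing brains 0 genes of the 10 passed. The tests covered 10 of them in T-like cells (0 of 6524 genes passed, 0%), 10 in NK-like cells (3 of 6299, 0.0476%), 9 in vascular-like cells (0 of 8896, 0%) and 7 in Krt8-high cells (2 of 8011, 0.025%). No gene of the 10 had an unadjusted p under 0.05 in these 4 classes, against 297, 254, 918 and 486 of all genes in the same order.

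The genes around the cathepsins were read from lists of enzymes that mature and sort them, of other lysosomal enzymes, of the lysosomal membrane and acid pump, of their transcription factors and of their substrates. In metastasis-bearing microglia-like cells 0 of the 80 tested genes of the 9 lists passed by limma and 15 had an unadjusted p under 0.05, as did 635 of all 7374 genes. Other lysosomal hydrolases had a median log2 change of 0.19, with 21 of 29 above 0, and the proton pump 0.17, with 10 of 14 above 0, against a median of 0.01 and 51.6% of genes above 0 over all genes. The sorting list stood at 0.05 and the membrane list at 0.08.

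Named genes of these lists were Grn, the precursor of granulins that steady lysosomal enzymes, with a log2 change of 0.48 (limma adjusted p = 0.341), and Gusb, the lysosomal beta-glucuronidase, with 0.76 (0.320). Gga2, an adaptor in sorting to the lysosome, had 0.61 and Arsb, a sulfatase, 0.58. Cstb, a cystatin that stays inside the cell, had 0.43. Tfeb and Tfe3, the transcription factors that bind the E-box of lysosomal genes, had -0.36 and -0.24. None of the genes named here passed the test.

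Class II genes, whose invariant chain is cut by Ctss, had a median log2 change of -1.52 in metastasis-bearing microglia-like cells, with 5 of 6 below 0 and 0 passing. H2-Aa stood at 15.0 and 26.7 CPM in homozygous and 80.1 and 360 CPM in heterozygous brains (log2 change -2.59, limma adjusted p = 0.250). H2-Eb1 had a log2 change of -2.65 (limma adjusted p = 0.239). In monocyte/macrophage-like cells all 6 class II genes lay below 0 with a median of -0.74, 0 passed and 6 had an unadjusted p under 0.05. All 14 proton pump genes lay above 0 there, with a median of 0.17 and 0 passing. Over all 6980 genes of these cells 53.1% lay above 0 and 535 had an unadjusted p under 0.05.

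In naive microglia-like cells 1 gene of the lists rose and 1 fell, of 79 tested, against 31 and 13 of all 7693 genes. H2-DMa, which loads peptides onto class II, rose to 266 and 208 CPM in homozygous against 154 and 176 CPM in heterozygous brains (log2 change 0.49, limma adjusted p = 0.0182). Cd63, a protein of the late endosome and lysosome membrane, fell to 335 and 338 CPM in homozygous against 418 and 468 CPM in heterozygous brains (log2 change -0.38, limma adjusted p = 0.0199). Among proteases that Ctsc matures, Gzma passed in monocyte/macrophage-like cells, at 177 and 195 CPM in homozygous and 59.0 and 63.9 CPM in heterozygous brains (log2 change 1.46, limma adjusted p = 0.0392). Granzyme A is made by killer lymphocytes, and the NK markers summed in the same cells to 36.0 and 48.3 CPM in homozygous and 15.6 and 28.0 CPM in heterozygous brains. Their part in the Gzma result was not tested.

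Within monocyte/macrophage-like cells, the authors' antibody gates split cells by surface Ly6C, which is high on newly arrived monocytes and lower as they mature. Cst3, Cst7 and Ctsh rose and Ctsc fell in Ly6C-low against Ly6C-high cells of the same brain. This comparison was added after the files were seen, takes the brain as a block and pools both genotypes. It rests on 198 and 102 Ly6C-low cells in homozygous and 74 and 220 in heterozygous brains, against 178 and 165 Ly6C-high cells in homozygous and 82 and 277 in heterozygous brains. Of 6792 genes 20.4% passed, 10.9% upward and 9.51% downward, and of the 10 genes 3 rose and 1 fell.

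Cst3 stood at 3904 and 4345 CPM in Ly6C-low cells of homozygous brains and 5958 and 5274 CPM in those of heterozygous brains. In Ly6C-high cells it stood at 2672 and 2494 CPM in homozygous and 3500 and 2781 CPM in heterozygous brains. It was higher in Ly6C-low cells in 4 of 4 brains, with a log2 change of 0.76 (SE 0.06, limma adjusted p = 1.5e-05). Within each gate, heterozygous brains lay above homozygous brains.

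Cst7 stood at 21.7 and 23.1 CPM in Ly6C-low cells of homozygous brains and 30.6 and 24.1 CPM in those of heterozygous brains, against 5.83 and 7.63 CPM and 6.94 and 7.87 CPM in Ly6C-high cells of the same brains. Its log2 change was 1.03 (SE 0.12, limma adjusted p = 0.000216), on a scale where the 10 CPM added before the log pull small values together. Ctsc stood at 937 and 840 CPM in Ly6C-low cells of homozygous brains and 638 and 1378 CPM in those of heterozygous brains, against 1363 and 1385 CPM and 947 and 1462 CPM in Ly6C-high cells. It fell in 4 of 4 brains, by 0.47 on the log2 scale (SE 0.09, limma adjusted p = 0.0037). Ctsh rose by 0.21 (limma adjusted p = 0.0405), and this call was lost in 3 of the 4 fits that left out a brain.

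The gates also moved markers of other cells. Summed monocyte markers ranged from 10376 to 13792 CPM in Ly6C-low and from 25888 to 29078 CPM in Ly6C-high cells, and summed macrophage markers from 6156 to 10024 CPM in Ly6C-low and from 4171 to 6554 CPM in Ly6C-high cells. Dendritic cell markers summed to 162 to 439 CPM in Ly6C-low and 67.3 to 197 CPM in Ly6C-high cells, and microglia markers to 537 to 1004 CPM in Ly6C-low and 372 to 685 CPM in Ly6C-high cells. Border-associated macrophage markers summed to 824 to 1064 CPM in Ly6C-low and 393 to 655 CPM in Ly6C-high cells, without overlap, and B cell markers to 67.2 to 166 CPM in Ly6C-low and 51.6 to 84.0 CPM in Ly6C-high cells. NK markers, which matter for Cst7, summed to 8.02 to 72.5 CPM in Ly6C-low and 2.33 to 30.1 CPM in Ly6C-high cells. Their part in the 4 results and in those of the class II genes was not tested.

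All 6 class II genes rose in Ly6C-low cells, Cd74 by 1.73, H2-Aa by 1.90, H2-Ab1 by 1.95, H2-Eb1 by 2.02, H2-DMa by 0.93 and H2-DMb1 by 1.45 on the log2 scale. Of 28 other lysosomal hydrolases 6 rose and 3 fell, against 10.9% upward and 9.51% downward of all 6792 genes. Acp5, an acid phosphatase, rose by 1.33, and Npc2, which carries cholesterol out of the lysosome, fell by 0.40. Among maturation and sorting genes Lgmn, the legumain that processes cathepsins, rose by 0.31 and Tmem106b, a lysosomal membrane protein, by 0.37, and Sort1, a sorting receptor, fell by 0.69. In the membrane list Cd63 rose by 0.55, and Lamp1 and Lamp2, the main proteins of the lysosomal membrane, fell by 0.32 and 0.56. In the proton pump 3 of 14 genes fell, against 9.51% of all genes, and Tfec, a transcription factor of the TFEB family, fell by 1.01. Cstb fell by 0.52.

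**Figure D4:**
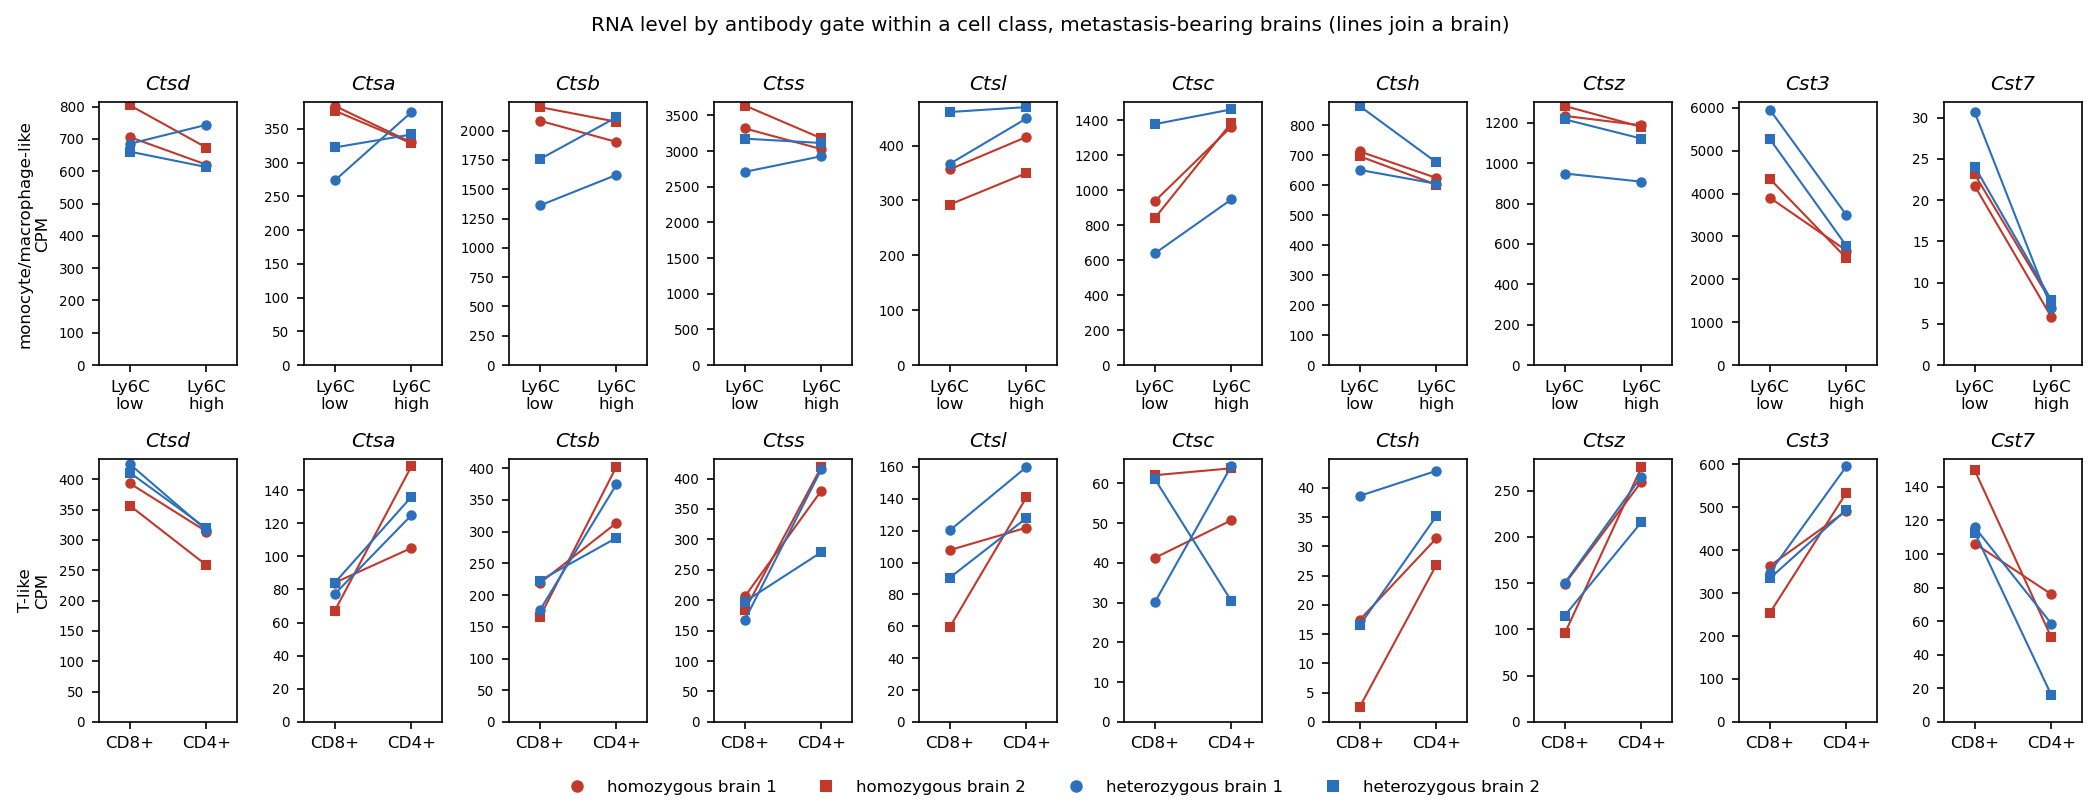
Level (CPM) of each gene by antibody gate in metastasis-bearing brains, Ly6C-low left of Ly6C-high cells of the monocyte/macrophage-like class (top) and CD8+ left of CD4+ cells of the T-like class (bottom); lines join the gates of 1 brain, homozygous in red and heterozygous in blue. Cst7 is higher in the left gate in 4 of 4 brains of both rows, and Cst3 is higher in Ly6C-low and lower in CD8+ cells in 4 of 4 brains.

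Within T-like cells, CD8+ cells (killer T cells) carried more Cst7 and Ctsd and less Ctsa, Ctsb, Ctss, Ctsz and Cst3 than CD4+ cells (helper T cells) of the same brain. The gates held 53 and 32 CD8+ cells in homozygous and 20 and 117 in heterozygous brains, against 71 and 26 CD4+ cells in homozygous and 45 and 108 in heterozygous brains, so single brains rest on few cells. This comparison too was added after the files were seen. Of 6473 genes 6.19% passed, 2.12% upward and 4.08% downward, and of the 10 genes 2 rose and 5 fell. The median log2 change of the 10 was -0.68, against -0.08 over all genes.

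Cst7 stood at 106 and 150 CPM in CD8+ cells of homozygous brains and 116 and 113 CPM in those of heterozygous brains. In CD4+ cells it stood at 76.1 and 50.3 CPM in homozygous and 58.5 and 15.99 CPM in heterozygous brains. All CD8+ values lay above all CD4+ values, with a log2 change of 1.24 (SE 0.25, limma adjusted p = 0.0098). Ctsc, whose maturation of granzymes Cst7 restrains, had a log2 change of -0.09 (SE 0.26, limma adjusted p = 0.893). The granzymes Gzma and Gzmk, proteases of killer granules, rose by 3.61 and 2.22 on the log2 scale, and Ctsw, a cathepsin of killer lymphocytes, by 1.80.

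Ctss stood at 206 and 184 CPM in CD8+ cells of homozygous brains and 167 and 198 CPM in those of heterozygous brains, against 380 and 419 CPM and 416 and 279 CPM in CD4+ cells, and fell by 0.94 on the log2 scale (SE 0.14, limma adjusted p = 0.0015). Ctsz fell by 0.96, Ctsb by 0.79, Cst3 by 0.70 and Ctsa by 0.66, with limma adjusted p-values of 0.0017, 0.0070, 0.0034 and 0.0378. Cd74, the invariant chain, fell by 1.95. The calls of Ctsa and of Ctsd, which rose by 0.38 (limma adjusted p = 0.0481), were lost in all 4 fits that left out a brain, and those of Cst7 and Ctsb without the second homozygous brain (limma adjusted p = 0.0882 and 0.0610). The calls of Ctss, Ctsz and Cst3 stayed in all 4.

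Sums over marker lists of other cells differed between the gates in both directions, and a listed gene can also be made by T cells. Summed microglia markers ranged from 41.4 to 91.3 CPM in CD8+ and from 94.0 to 142 CPM in CD4+ cells, and macrophage markers from 59.4 to 117 CPM in CD8+ and from 102 to 196 CPM in CD4+ cells. Monocyte markers lay the other way without overlap, from 1159 to 2715 CPM in CD8+ and from 529 to 1144 CPM in CD4+ cells. Of these sums Ly6c2 alone held 1870 and 1290 CPM in CD8+ cells of homozygous and 528 and 959 CPM in those of heterozygous brains. In CD4+ cells Ly6c2 held 126 and 376 CPM in homozygous and 35.1 and 182 CPM in heterozygous brains. With Ly6c2 so large a part, the gap in monocyte markers is not read as monocyte RNA. Dendritic cell markers also lay higher in CD8+ cells without overlap, from 155 to 182 CPM against 86.9 to 138 CPM in CD4+ cells. Of the 8 listed dendritic genes, 4 were at 0 in CD8+ cells and 3 in CD4+ cells. NK markers, of which Prf1 and Eomes are also used by killer T cells, summed to 155 to 386 CPM in CD8+ and 9.60 to 30.2 CPM in CD4+ cells. Their part in the results was not tested. CD8+ cells were deeper, with medians of 6683 and 8579 raw molecules in homozygous and 5364 and 6869 in heterozygous brains, against 5791 and 5370.5 and 4485 and 4994 in CD4+ cells.

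The genes whose pattern was most like that of each member were ranked by Pearson's r of log2(CPM + 10) over 28 sums, each of 1 class in 1 brain, of 8 classes in metastasis-bearing brains. Over 8247 genes, Cst3 was most like Tgfbr1 (r = 0.986), Atf3 (0.986) and Csf1r (0.979), and Ctsa most like C1qb (0.966), C1qc (0.965) and Lgmn (0.964). Ctsb was most like Grn (0.958), Ccl2 (0.955) and Hmox1 (0.925), and Ctsz most like Asah1 (0.942), Grn (0.940) and Tbc1d9 (0.936). Ctsl had Plxnb2 (0.943), Lamp1 (0.929) and Rrbp1 (0.923), and Ctss had Clta (0.966), Scamp2 (0.962) and Man2b1 (0.961).

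Ctsc was most like Tmem219 (0.944), Necap2 (0.935) and Apoe (0.933), and Ctsh most like Stx7 (0.958), Apoe (0.950) and Sgk3 (0.950). Ctsd had Gm26778 (0.950), P2ry13 (0.941) and Il1a (0.941). Cst7 stood apart from the other 9 with Nkg7 (0.889), Gzmb (0.886) and Txk (0.884), genes of killer lymphocytes, and its r with the other members ran from -0.37 to 0.32. The closest members were Ctsa and Ctss (r = 0.937), Ctsb and Ctsz (0.921) and Ctsc and Ctsh (0.902). The points share the preparation, the brains and the depth correction, so these values are descriptions.

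Cell by cell, Cst3 and Ctsb ran opposite to each other in homozygous metastasis-bearing microglia-like cells. The correlation of their ln values over cells was -0.65 and -0.45 in the homozygous brains and -0.20 and -0.09 in the heterozygous brains. Ctsc against Cst3 gave -0.59 and -0.44 in homozygous and -0.29 and -0.21 in heterozygous brains, and Ctsz against Cst3 gave -0.48 and -0.46 in homozygous and -0.17 and -0.15 in heterozygous brains. For all 3 genes the homozygous brains were the more negative. The same held for Ctsd against Cst3, at -0.37 and -0.19 in homozygous and 0.09 and 0.31 in heterozygous brains. It also held for Ctsa (-0.11 and -0.20 against 0.05 and 0.13) and Ctsl (-0.15 and -0.03 against 0.02 and 0.36). For Ctsh and Ctss the homozygous and heterozygous brains overlapped.

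Ctss ran with Cst3 instead, at 0.31 and 0.49 in homozygous and 0.21 and 0.44 in heterozygous brains. In naive microglia-like cells Ctsb against Cst3 was near 0, at -0.11 and 0.03 in homozygous and 0.08 and -0.01 in heterozygous brains. Ctsc against Cst3 was below 0 in all 4 naive brains, at -0.19 and -0.14 in homozygous and -0.05 and -0.06 in heterozygous brains, and Ctsz against Cst3 was -0.01 and -0.05 in homozygous and 0.02 and 0.08 in heterozygous brains. Naive Ctss against Cst3 was 0.49 and 0.59 in homozygous and 0.46 and 0.41 in heterozygous brains. Over all 36 pairs of the 9 genes other than Cst7, the median of the brains' correlations ran from -0.36 to 0.50 in metastasis-bearing microglia-like cells. In monocyte/macrophage-like cells it ran from -0.12 to 0.66, the highest being Ctsb with Ctsd. The cells of a brain share its library and depth, and because Cst3 holds several percent of a cell's corrected molecules its level enters the total of each cell. Whether RNA of monocyte/macrophage-like cells entered the correlations in microglia-like cells was not tested.

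**Figure D5:**
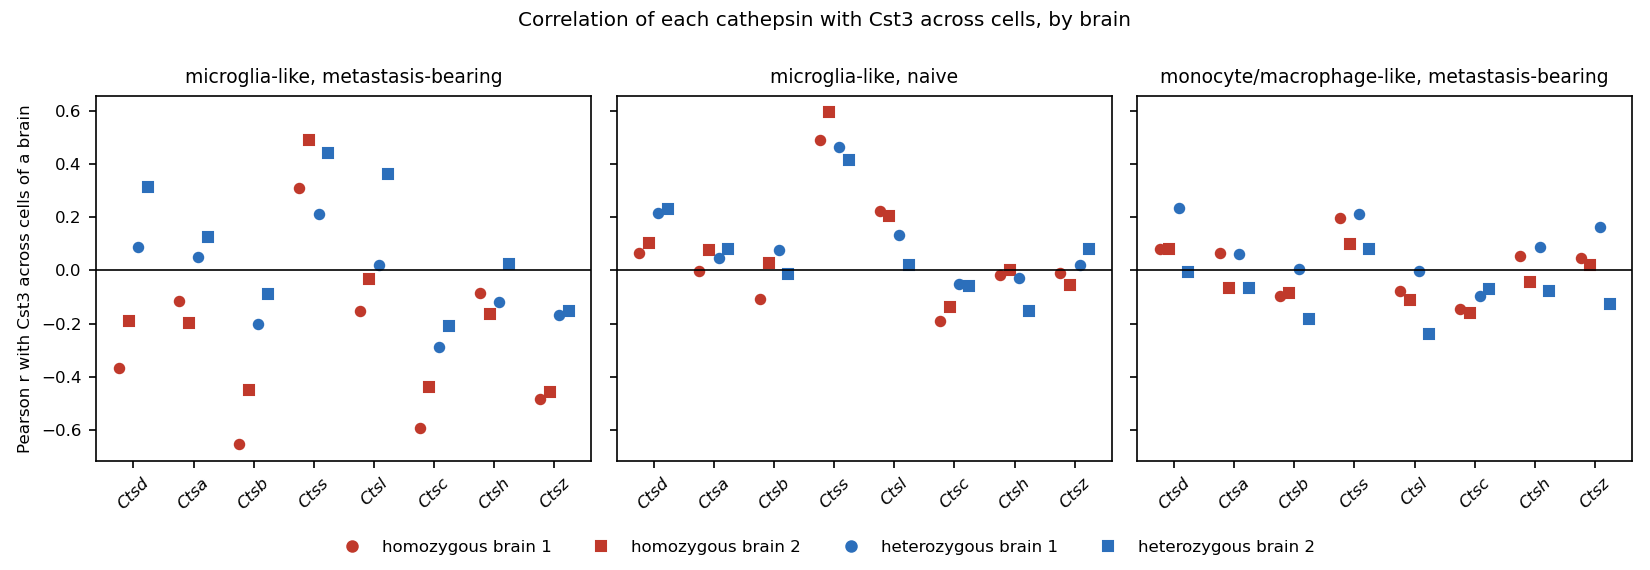
Pearson r of each cathepsin with Cst3 across the cells of a brain, 1 point per brain, homozygous (red) left of heterozygous (blue), in microglia-like cells of metastasis-bearing and naive brains and in monocyte/macrophage-like cells. Ctsb, Ctsc and Ctsz lie lowest in the homozygous metastasis-bearing microglia-like cells, and Ctss lies above 0 in all brains.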

How the data were processed

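Single-cell RNA of 8 brains was read through 2 tables that the authors deposited, 1 for metastasis-bearing and 1 for naive brains. Their values are the natural log (ln) of 1 plus a depth-corrected count of RNA molecules (UMIs), as found from the deposited values, since exp(value) - 1 gave whole numbers for 100% of nonzero values (relative tolerance 1e-06). The correction was made in each table separately. Cell metadata deposited by the authors gave raw molecule counts, clusters, hashtags, genotypes and antibody gates. Per the submitters' processing notes, Cell Ranger 3.1, Seurat 3.1.1 and the mm10 build were used upstream.

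The tables held 13455 cells, and dropping the 1138 barcodes common to both from each left 11179. No doublet caller was run; the deposited cells carry the authors' hashtag assignment, which cannot show a pair of cells from the same brain. Clusters were named from marker lists where these allowed it. Corrected counts were summed per brain and class, scaled to 1000000 (CPM) and transformed as log2(CPM + 10). They are depth-corrected, so no count model was used. Molecules were read from the 3 prime end, so no length scaling was made. The fit was made with limma (version 3.58.1, R 4.3.3; lmFit, eBayes with trend) over genes averaging more than 10 CPM, each table alone, homozygous minus heterozygous, with Benjamini-Hochberg adjustment over all genes and a threshold of 0.05. A class was tested where each brain had at least 20 cells. The interaction was fitted over 8 brains, class differences within brains, and gate differences with the brain as a block. The p-values rest on the spread between these brains as moderated by eBayes, which draws each gene's variance toward a trend over all genes. With 2 brains per genotype, much of that variance is borrowed from other genes. Sums and figures were made in Python 3.11.15 with pandas 2.3.3, numpy 2.4.6 and matplotlib 3.10.9. The fits were tested on simulated data.

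The members, the pathway and marker lists and the tests were chosen with earlier results of these data known. Named genes were the 10 members, in each pathway list every gene past the threshold and the 2 with the smallest p in microglia-like cells of each state (a selection of these is printed, and some are not reported here), the 3 genes most like each member, and Cx3cr1. Alternatives were the pseudocount, filter, scaling, variance trend, dropped barcodes, depth of cells, averaging of ln values, the authors' antibody gate for microglia and each brain left out.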

Additional observations from a re-analysis of the deposited data

How the results depend on the processing

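Fold changes kept their direction and side of the threshold in 590 repeats with another setting, turned in 33, lost a call in 32 and gained one in 17. Counts of called genes stayed within 1.5 times in 62 repeats and moved in 22; the causes were not tested. No paired analysis was possible because hashtag numbers only name the brains and tie no homozygous brain to a heterozygous one; differences between classes and between gates were taken within brains.

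In metastasis-bearing microglia-like cells, averaging ln values put 1 gene, Cst3, past the threshold in place of 0. In naive microglia-like cells the 2 called genes became 1 with a pseudocount of 1 CPM. They became 0 with no filter, median-ratio scaling, no variance trend, all deposited cells, cells of 5000 to 15000 raw molecules or the authors' gate. A genotype fit without a brain leaves 1 brain in a genotype, so its count of called genes is not read as a result. The share of all genes called in those fits is not given here, so the counts that follow only show how far they moved. Without a brain the count ran from 0 to 2 in monocyte/macrophage-like cells, 0 to 7 in the other classes, 0 to 2 for the interaction, 0 to 1 for the class difference and 3 to 5 for CD8+ against CD4+ cells.

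Some log2 changes turned. In metastasis-bearing microglia-like cells the authors' gate gave -0.31 for Ctsd, -0.060 for Ctsh, -0.43 for Ctsl and -0.37 for Ctss, cells of 5000 to 15000 raw molecules gave -0.031 for Ctsl, and Ctsa ran from -0.074 to 0.062 without a brain. In naive microglia-like cells Ctsz was -0.022 with median-ratio scaling and ran from -0.040 to 0.086 without a brain. In monocyte/macrophage-like cells, leaving out a brain gave -0.27 to 0.41 for Ctsc, -0.095 to 0.31 for Ctsd, -0.24 to 0.13 for Ctsh and -0.014 to 0.033 for Cst7, which was -0.043 with cells of 5000 to 15000 raw molecules and -0.0013 with averaged ln values. For the interaction the authors' gate gave -0.15 for Ctsa, -0.21 for Ctsc, -0.14 for Ctsd, -0.33 for Ctsl, -0.52 for Ctss and -0.011 for Ctsz. Ctsh was 0.0015 with averaged ln values and -0.13 to 0.019 without a brain, and Ctss was -0.063 with all deposited cells and -0.038 to 0.18 without a brain. For the class difference Ctss was -0.11 with all deposited cells and -0.038 to 0.15 without a brain, and Cst3 ran from -0.56 to 0.080. For the gates, leaving out a brain gave -0.11 to 0.11 for Ctsa between Ly6C-low and Ly6C-high cells and -0.39 to 0.18 for Ctsc between CD8+ and CD4+ cells. The level of Ctsl in metastasis-bearing microglia-like cells was 1399 CPM with all deposited cells.

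With 2 brains per genotype and 35 microglia-like cells in the smallest brain, small differences could not be detected, and values of Cst7 rest on the fewest molecules.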
